A study of Mus musculus with 9 samples.

Results

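Of the 6997 cell barcodes in the table of unique transcript counts (UMIs) from mouse trigeminal ganglia, 523 (7.47%) had fewer than 200 genes with at least 1 UMI. These barcodes were chosen by their number of genes alone, and they are compared here with the 6464 barcodes that had 200 to 8500 genes. A further 10 barcodes had more than 8500 genes. Cells came from dissociated ganglia of wild-type FVB/N mice that were 3 to 6 weeks old by the labels, with no transgene or treatment in any group. The 9 Dropseq runs each held cells pooled from several mice of both sexes, passed over a Percoll gradient and depleted of nonneuronal cells. Because a barcode does not name its run, the table is 1 pooled sample, no test between groups of barcodes was possible, and all values are descriptions. Intervals in the text are exact 95% intervals (binomial for shares, Poisson for UMIs per barcode) and cover counting error only, not differences between mice or runs.

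Haemoglobin is a tetramer of alpha and beta globin chains, each holding a haem group. Maturing red cells make little else: erythroblasts divide, condense and expel their nucleus, and the reticulocyte that remains translates stored globin mRNA for a short time while it sheds its mitochondria and ribosomes. A reticulocyte therefore carries few kinds of transcript. Blood reaches a dissected ganglion through its vessels, and in droplet assays RNA released from broken cells also enters droplets that hold other cells.

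Every barcode in the table had at least 1000 UMIs, so a low number of genes here was not a low number of transcripts. In the 523 barcodes the number of genes ranged from 55 to 198 with a median of 121, and the number of UMIs from 1000 to 2771 with a median of 1183. At this depth so few genes leave many UMIs per gene, and the size of the leading share follows in part from how the barcodes were chosen. The 3 leading genes together made up 51.6% to 94.4% of the UMIs, with a median of 85.4%. A median of 79.3% of its genes were represented by a single UMI. Over all 523 barcodes, 8648 genes had a UMI, but only 205 genes other than the adult globins reached 50 UMIs in sum.

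The gene with most UMIs was Hbb-bs, an adult beta globin, in 521 of the 523 barcodes (99.6%, interval 98.6% to 99.95%). The second was Hba-a1, an adult alpha globin, in 519, and the third was Hbb-bt, the other adult beta globin, in 516. The 4 adult globin genes together took 84.7% of all UMIs (84.6% to 84.7%). The median barcode had 85.4%. In 513 barcodes the share was 70% or more, against 63 of the 6464 barcodes of 200 to 8500 genes. The 523 barcodes held 2.14% of all UMIs in the table and 47.2% of its adult globin UMIs.

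**Figure D1:**
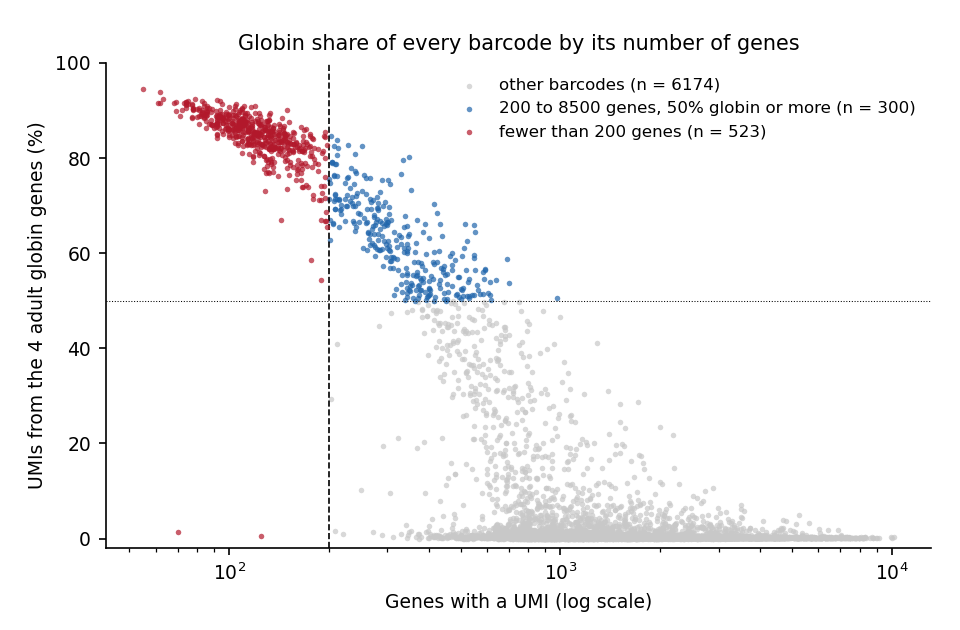
Share of UMIs from the 4 adult globin genes (y axis, %) against the number of genes with a UMI (x axis, log scale) for each of the 6997 barcodes; the dashed line marks 200 genes and the dotted line 50% globin. Apart from 2 barcodes near 0%, the 523 barcodes under 200 genes lie between 54.3% and 94.5%, and the 300 barcodes above the limit with 50% globin or more continue the same band downwards.

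Hbb-bs alone supplied 49.8% of the UMIs, with 4 UMIs in the lowest barcode, a median of 598 and 1314 in the highest. Hba-a1 supplied 23.3%, from 1 to 702 UMIs per barcode with a median of 276. Hbb-bt supplied 11.4%, from 1 to 322 UMIs with a median of 135. These 3 genes had a UMI in every one of the 523 barcodes. Hba-a2, the second adult alpha gene, stood apart: it had 354 UMIs in all (0.0541%), at most 4 in a barcode, and no UMI in 272 barcodes.

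The low count of Hba-a2 needs the gene sequences beside it. In the GRCm38 assembly Hba-a1 lies at chr11:32283511-32284465 and Hba-a2 at chr11:32296489-32297298, both on the plus strand, and Hbb-bt at chr7:103812524-103813996 and Hbb-bs at chr7:103826534-103828096, both on the minus strand. In GENCODE M21 transcripts the coding sequences of Hba-a1 and Hba-a2 had the same 429 bases except for 1, and those of Hbb-bs and Hbb-bt the same 444 bases except for 1. The stretches of 60 coding bases that hold the single difference of each pair are shown because they are where a read from the coding part could be told apart, with the differing base in capitals:
Hba-a1, coding bases 322 to 381: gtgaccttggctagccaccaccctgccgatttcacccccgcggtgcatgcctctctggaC
Hba-a2, coding bases 322 to 381: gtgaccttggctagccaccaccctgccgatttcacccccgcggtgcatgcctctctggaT
Hbb-bs, coding bases 358 to 417: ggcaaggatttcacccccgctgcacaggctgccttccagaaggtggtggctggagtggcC
Hbb-bt, coding bases 358 to 417: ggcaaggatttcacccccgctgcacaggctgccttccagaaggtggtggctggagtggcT

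Among the last 300 bases of the Hba-a2 transcript, where a 3′ assay reads, 73.7% of all windows of 50 bases also occurred in Hba-a1. For Hba-a1 the share found in Hba-a2 was 80.1%. The beta pair was easier to separate, with 36.7% of the windows of Hbb-bs present in Hbb-bt and 36.3% the other way. The annotated transcript of Hba-a1 had 699 bases and that of Hba-a2 had 554. The study's methods count the sequences with a single place of alignment, but how a read that fits both genes was counted is not given in the sources used here, so the split between Hba-a1 and Hba-a2 is uncertain and their sum is used below as alpha globin. The split between Hbb-bs and Hbb-bt is less uncertain, but it also rests on the bases after the stop codon.

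The 4 globin promoters are shown with that of Alas2, which encodes the first enzyme of haem synthesis in red cells and was the most abundant haem gene in these barcodes. Each run is the 100 bases before the RefSeq start (GRCm38.p6), 5′ to 3′ on the gene's strand. The windows of Hba-a1 and Hbb-bs lie inside the GENCODE genes given above, so the annotations differ in the start. Capitals mark matches on either strand to the CCAAT box, to CACCC, the core of the box that Klf1 binds, to TATAA, the core of the TATA box, and to AGATAA, a site of the GATA type:
Hbb-bs, chr7:103827929-103828028, minus: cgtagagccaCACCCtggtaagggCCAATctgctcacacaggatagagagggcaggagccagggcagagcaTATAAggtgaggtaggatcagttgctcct
Hbb-bt, chr7:103813924-103814023, minus: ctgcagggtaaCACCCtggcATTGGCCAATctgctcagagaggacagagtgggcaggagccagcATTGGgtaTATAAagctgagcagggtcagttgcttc
Hba-a1, chr11:32283572-32283671, plus: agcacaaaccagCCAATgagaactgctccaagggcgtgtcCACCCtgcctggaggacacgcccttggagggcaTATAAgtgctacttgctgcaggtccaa
Hba-a2, chr11:32296392-32296491, plus: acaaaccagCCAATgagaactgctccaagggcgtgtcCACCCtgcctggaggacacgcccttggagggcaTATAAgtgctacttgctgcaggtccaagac
Alas2, chrX:150547317-150547416, plus: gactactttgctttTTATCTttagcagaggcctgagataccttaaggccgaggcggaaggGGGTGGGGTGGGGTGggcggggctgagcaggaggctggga

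All 4 globin promoters held the first 3 of these motifs in this window. In the beta genes CACCC lay upstream of CCAAT, and in the alpha genes downstream of it. The Alas2 window held 3 CACCC matches and 1 AGATAA match on the minus strand, and no CCAAT or TATAA. Of 32851 promoter windows of the same length, 18.9% held CCAAT, 27.2% CACCC, 10.2% TATAA and 3.59% AGATAA. In Hbb-bt a CCAAT match on each strand lies end to end, and the 3 matches in Alas2 follow each other without a gap. These matches describe the letters only.

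The closest barcodes on the other side of the limit were the 300 with 200 to 8500 genes and at least 50% of UMIs from the adult globins, called globin-led barcodes here. They had a median of 324 genes (200 to 973) and 1383 UMIs. Their globin UMIs were nearly as many as in the barcodes under 200 genes: a median of 885 (511 to 2539) against 1009 (6 to 2339). Hbb-bs had a mean of 540 UMIs per barcode against 623, Hba-a1 267 against 292 and Hbb-bt 133 against 143. The other UMIs differed more. A globin-led barcode had a median of 510.5 non-globin UMIs (258 to 2110) and a barcode under 200 genes a median of 181 (58 to 1090). Both groups were chosen by number of genes, and the globin-led group also by its globin share. This contrast follows in part from that choice.

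**Figure D2:**
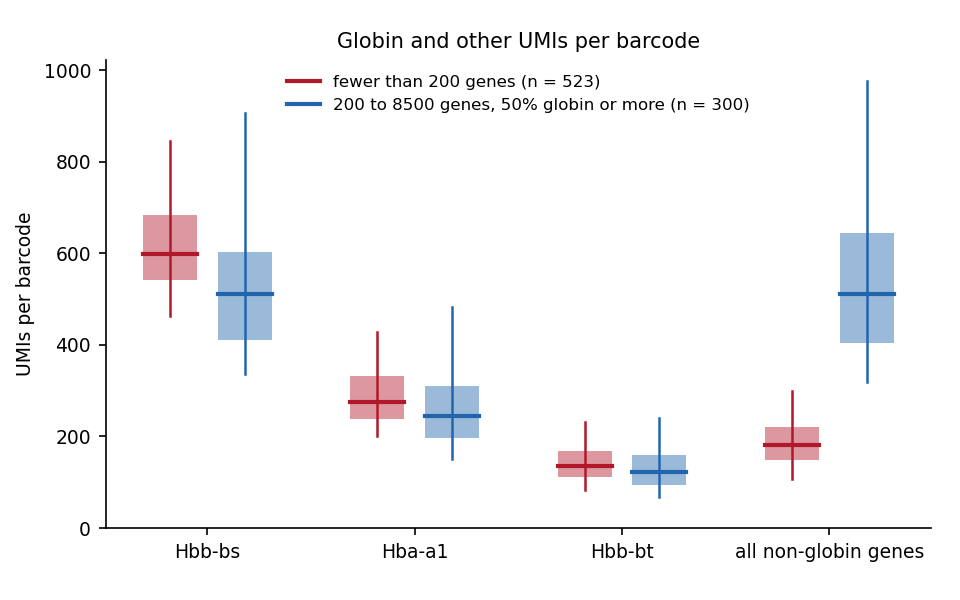
UMIs per barcode (y axis) of the 3 abundant globin genes and of all non-globin genes together in barcodes under 200 genes and in globin-led barcodes of 200 to 8500 genes. The line inside each box is the median, the box spans the quartiles and the vertical line the 5th to 95th percentile over barcodes. The globin boxes overlap and the non-globin boxes do not, in groups that were chosen by number of genes.

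Among the 519 barcodes under 200 genes with 60% globin or more, the number of genes followed the non-globin UMIs (Pearson r = 0.90, Spearman rho = 0.90 over barcodes) and not the globin UMIs (r = 0.12, rho = 0.03). Genes and UMIs of 1 barcode come from the same molecules, so these are descriptions. At a matched number of non-globin UMIs the groups still differed in gene number. When each barcode was rarefied to 50 of its non-globin UMIs, the expected number of genes had a median of 39.7 in barcodes under 200 genes, 45.2 in globin-led barcodes and 48.6 in the 5589 low-globin barcodes, those of 200 to 8500 genes with under 5% globin. At 100 UMIs the medians were 71.8, 84.7 and 94.99, with 17 barcodes under 200 genes left out as too shallow. The number of genes was chosen on, so the order of these medians is not a test.

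The ratio of alpha to beta globin UMIs was 0.382 in barcodes under 200 genes, 0.397 in globin-led barcodes and 0.313 in low-globin barcodes. Hbb-bs made up 81.3% (81.2% to 81.4%) of beta globin UMIs in the first group, 80.2% (80.1% to 80.4%) in the second and 87.6% (87.3% to 87.8%) in the third. Globin UMIs were present at a low level nearly everywhere: 92.5% of low-globin barcodes, which had a median of 2434 UMIs, had a UMI of Hbb-bs, and 76.2% still did when thinned to 1000 UMIs. The globin UMIs found in other cells thus held less Hbb-bt and less alpha globin than those of the barcodes under 200 genes. What set these ratios was not tested.

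The ratio also varied among the barcodes under 200 genes. In the 521 with at least 100 globin UMIs, the Hbb-bs share of beta globin ran from 70.5% to 91.1% with an SD of 3.46 percentage points, where counting alone gives 1.43. The alpha share of globin ran from 14.0% to 36.0% with an SD of 3.24 points, where counting gives 1.399. The 2 shares were nearly unrelated over barcodes (r = 0.10, rho = 0.10, 519 barcodes). Whether mice, runs or single cells differ in these ratios cannot be told apart here, since no label ties a barcode to a mouse.

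The embryonic globins were close to absent. Hbb-y had 28 UMIs, Hbb-bh1 14, Hbb-bh2 3 and Hba-x 0 in the 523 barcodes, against 325688 for Hbb-bs. A count of 0 is taken to allow 3 UMIs, or 0.00574 per barcode, where the exact interval reaches 0.00705. The alpha-like genes Hbq1b and Hbq1a had 80 and 55 UMIs. Hbq1a was at 0.105 UMIs per barcode (0.0792 to 0.137) against 0.0733 (0.0460 to 0.111) in globin-led barcodes, with overlapping intervals. Hbq1b was lower, at 0.153 (0.121 to 0.190) against 0.390 (0.323 to 0.467).

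Outside the 4 adult globins, 100295 UMIs remained. These are called non-globin throughout, although they include 180 UMIs of the embryonic and alpha-like globins. Of the 100295 UMIs, 16.98% came from 68 genes of 5 erythroid lists (haem synthesis, iron, membrane, enzymes, and clearance and late genes). The share was 16.7% in globin-led barcodes and 1.05% in low-globin barcodes. Within this sum, clearance and late genes took 6.27% (6.13% to 6.43%) against 3.40% in globin-led barcodes. Erythroid transcription factors and early genes, a list outside the sum, took 0.128% (0.107% to 0.152%) against 1.35%. The genes are taken below list by list, on 2 scales: the share of non-globin UMIs, and UMIs per barcode.

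Across all 377 non-globin genes with at least 50 observed or expected UMIs, 17.8% had a share at least 2 times higher in barcodes under 200 genes than in globin-led barcodes and 45.1% a share at least 2 times lower. The median ratio of shares was 0.614. On the scale of UMIs per barcode none (0.0%) was at least 2 times higher and 71.9% were at least 2 times lower, with a median ratio of 0.2105. The mean number of non-globin UMIs per barcode was 192 against 559. A gene with an equal share in both groups would thus be lower per barcode. A raised share therefore did not mean more UMIs per barcode: Isg20, an exonuclease, had a share 2.07 times higher and a level per barcode of 0.710 times that of globin-led barcodes.

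**Figure D3:**
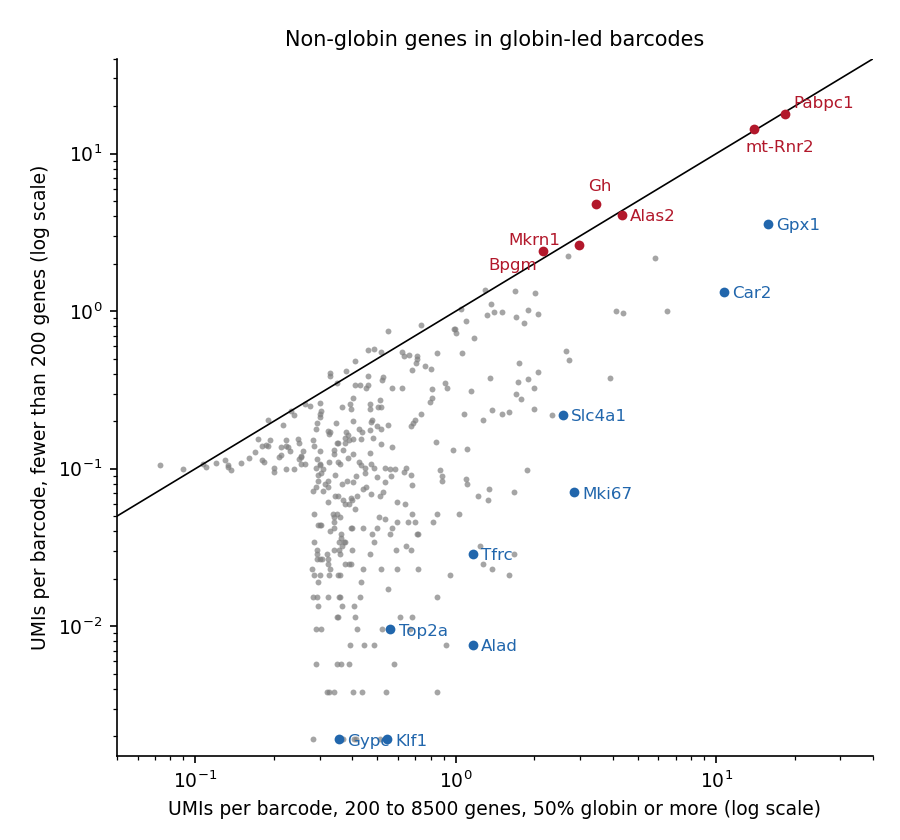
Mean UMIs per barcode of non-globin genes in barcodes under 200 genes (y axis, log scale) against globin-led barcodes of 200 to 8500 genes (x axis, log scale); the line marks equal levels, red and blue points are genes named in the text, and genes with 0 UMIs in either group are not drawn. Points start near 0.28 on the x axis where a gene was kept by its expected UMIs; Pabpc1, mt-Rnr2, Alas2, Mkrn1 and Bpgm lie near the line, and Klf1, Gypc and Alad lie far below it.

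Pabpc1, which encodes the cytoplasmic poly(A)-binding protein that protects and helps translate mRNA, had more UMIs than any other non-globin gene. It had 9310 UMIs in 514 of the 523 barcodes, with a median of 16 and a highest value of 100. That was 9.28% (9.10% to 9.46%) of non-globin UMIs against 3.28% in globin-led barcodes and 0.0743% in low-globin barcodes. In the 30 barcodes of 200 to 8500 genes with 75% globin or more the share was 7.14%, and in the 522 with 25% or more it was 1.91%. Per barcode the level was 17.8 (17.4 to 18.2) against 18.3 (17.9 to 18.8) in globin-led barcodes, with overlapping intervals. The gene lies at chr15:36595661-36609668 on the minus strand.

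The genes of haem synthesis divided sharply. Alas2 had 2144 UMIs in 507 barcodes, or 4.10 per barcode (3.93 to 4.28) against 4.33 (4.10 to 4.58) in globin-led barcodes. Fech, which inserts iron into the ring in the final step, had 0.964 per barcode against 2.07. The enzymes of the steps between them were much scarcer: Urod had 0.0841 per barcode against 0.887, Cpox 8 UMIs against 253 and Alad 4 UMIs against 349. Of the 7 haem genes compared, 1 (Alas2) had a share at least 2 times higher and 5 a share at least 2 times lower. Over all genes compared the percentages were 17.8% and 45.1%.

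Among the genes of iron supply and storage, the light chain of ferritin, Ftl1, was at 2.24 UMIs per barcode against 2.69, and the heavy chain, Fth1, had 1135 UMIs in sum and 5.81 per barcode in globin-led barcodes, a ratio of 0.374 per barcode. Slc25a37, the mitochondrial iron importer mitoferrin 1, was at 0.556 against 2.64. Tfrc, the transferrin receptor through which erythroblasts take up iron, had 15 UMIs against 349. Of the 4 compared by share, 1 was at least 2 times higher and 1 at least 2 times lower. Over all genes compared the percentages were 17.8% and 45.1%.

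The membrane list had the same direction almost throughout, with 13 of 14 compared genes at least 2 times lower by share. Over all genes compared 45.1% were. Slc4a1, the band 3 anion exchanger, was at 0.220 UMIs per barcode against 2.58. Rhd, of the Rhesus complex, had 17 UMIs against 370. Gypc had 1 UMI against 107, a ratio of 187 per barcode with a counting interval of 32.8 to 7436. The exception was Epb4.1, which encodes the skeletal protein 4.1 and also stood in the late list, at 1.34 against 1.69.

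Red cell enzymes were mixed. Bpgm, which makes the 2,3-bisphosphoglycerate that loosens oxygen from haemoglobin, was at 2.41 UMIs per barcode (2.28 to 2.55) against 2.15 (1.99 to 2.33), and its share of 1.26% compared with 0.385%. Gpx1, a peroxidase, was lower at 3.58 against 15.8, and so was Prdx2, a peroxiredoxin, at 1.002 against 4.13. Car2, a carbonic anhydrase, showed the widest gap of these abundant enzymes: 1.32 (1.22 to 1.42) against 10.7 (10.4 to 11.1), with 0 UMIs in the median barcode under 200 genes. The gaps of Gpx1 and Car2 were smaller against the 30 barcodes of 200 to 8500 genes with 75% globin or more, which had 9.07 UMIs of Gpx1 and 4.17 of Car2 per barcode. Of 7 genes compared, 1 had a share at least 2 times higher and 1 at least 2 times lower. Over all genes compared the percentages were 17.8% and 45.1%.

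The late and clearance list was the erythroid list with most genes raised by share: 7 of 16 were at least 2 times higher and 2 at least 2 times lower, with a median ratio of 1.92 against 0.614 over all genes compared. Per barcode its median ratio was 0.659. Bnip3l, the receptor that directs mitochondria to autophagy in reticulocytes, was at 1.36 UMIs per barcode against 1.29. Mkrn1, a ubiquitin ligase, was at 2.64 against 2.98. Isg20, an exonuclease, was at 0.994 against 1.4 and Fam46c, a poly(A) polymerase, at 0.947 against 1.31. Among the lower genes, Ctse, a cathepsin, had 35 UMIs against 365.

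Transcription factors and proliferation genes had few UMIs. All 8 of the compared genes of the early list had a share at least 2 times lower, against 45.1% of all genes compared. The median ratio was 0.0499 by share and 0.0171 per barcode. Klf1, an erythroid transcription factor that binds the CACCC box, had 1 UMI in 523 barcodes and 163 in 300 globin-led barcodes, a ratio of 284 per barcode with a counting interval of 50.3 to 11292. This ratio depends on the barcodes compared: Klf1 was at 0.543 UMIs per globin-led barcode, but at 0.0333 in the 30 with 75% globin or more. The nuclear protein gene Hemgn had 15 UMIs against 502, and among the transcription factors Nfe2 had 3 against 105, Tal1 3 against 109 and Gata1 2 against 32. Lmo2, a cofactor of these, was less scarce, with 52 UMIs against 175, and supplied 52 of the 128 UMIs of the list. Mki67, a marker of dividing cells, had 37 against 851, and Top2a, the topoisomerase of chromosome condensation, 5 against 168. The level of Top2a also depended on the barcodes compared. It was 0.016 UMIs per barcode in the 125 globin-led barcodes of 200 to under 300 genes. In the 91 of 300 to under 400 genes it was 0.659.

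The 10 lowest shares against globin-led barcodes were Klf1 and 9 genes of the cell cycle or chromatin. Cyclin A2 (Ccna2), Cdca8, Kif23 and Dlgap5 had 0 UMIs against 101, 119, 87 and 84. Against the 3 UMIs that 0 is taken to allow, they were 58.7-fold, 69.2-fold, 50.6-fold and 48.8-fold higher per globin-led barcode. Hist1h2ak had 2 UMIs against 254, and Cks2, Hmmr, Tpx2 and Cenpe had 1 each against 153, 124, 122 and 111. Not every gene used in mitosis was this scarce: Ube2c, a ubiquitin-conjugating enzyme, had 256 UMIs in 149 barcodes, 0.489 per barcode against 2.72.

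**Figure D4:**
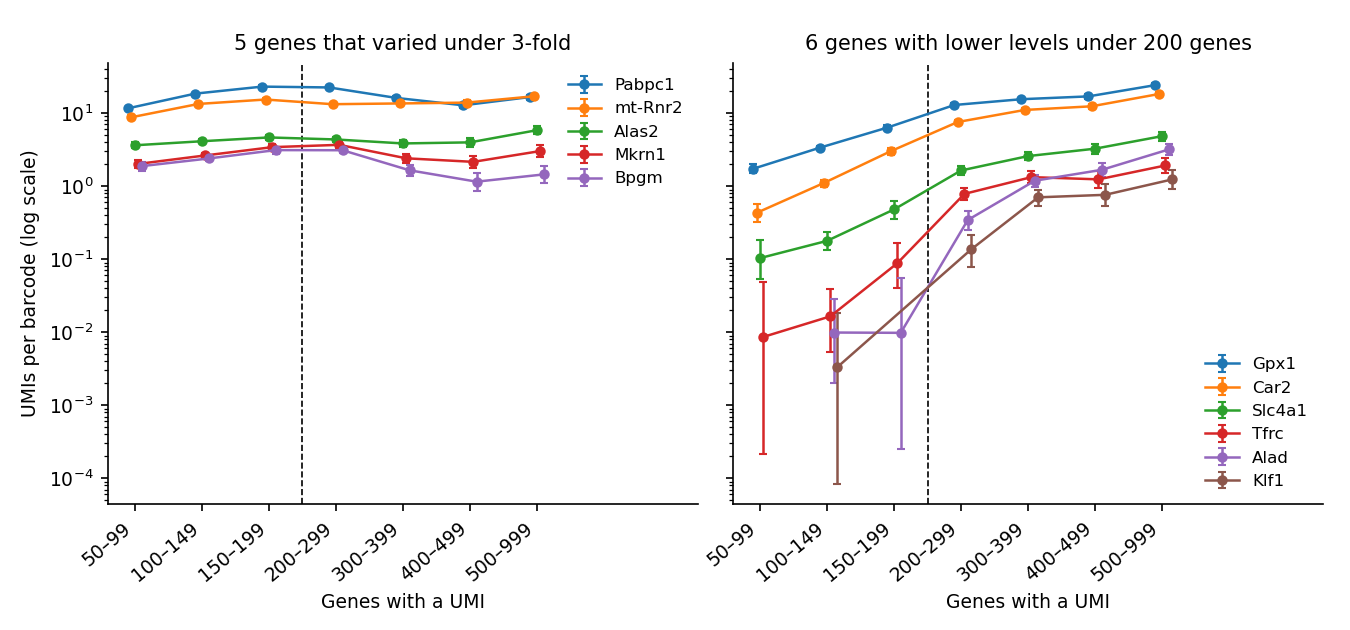
Mean UMIs per barcode (y axis, log scale) in bins of barcodes by number of genes (x axis), for globin-led barcodes on both sides of the limit (521 barcodes under 200 genes and 300 above), with exact 95% Poisson intervals; bins with 0 UMIs are not drawn and the dashed line marks 200 genes. Pabpc1, mt-Rnr2, Alas2, Mkrn1 and Bpgm stay within a 3-fold range, while Gpx1 goes from 1.73 to 24.2 and Car2 from 0.431 to 18.3.

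Levels also differed inside the group. The plot of levels by number of genes shows the 521 globin-led barcodes under 200 genes in 3 bins. From the lowest bin of 50 to 99 genes (116 barcodes) to the highest of 150 genes or more (102 barcodes), mean globin UMIs went from 1014 to 1090 and Alas2 from 3.63 to 4.65 UMIs per barcode. Pabpc1 went from 11.6 to 23.1, mt-Rnr2 from 8.78 to 15.4, Mkrn1 from 2.02 to 3.42 and Bpgm from 1.88 to 3.12. Calca went from 0.138 to 0.402. Gh went from 2.90 to 8.77, but to 4.42 (4.02 to 4.85) in the 100 barcodes of the highest bin with 60% globin or more. Over the same bins Gpx1 went from 1.73 to 6.34 and Car2 from 0.431 to 3.01. A barcode with more genes has more non-globin UMIs by construction (a mean of 124 in the lowest bin and 271 in the highest), so each level is read against that.

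At the limit itself most barcodes on both sides were globin-led. The 26 barcodes from 180 genes up to the limit were all globin-led, with a median globin share of 76.7% (54.3% to 85.4%). Of the 37 with 200 genes or more but fewer than 220, 34 were globin-led, and the median share was 71.5% (1.60% to 84.7%). Alas2 was at 4.62 UMIs per barcode just below the limit and 3.78 just above it, and Car2 at 5.35 and 6.68. Klf1 had 0 and 5 UMIs, and Gypc 0 and 6. In the 34 globin-led barcodes just above the limit Alas2 was at 4.0 UMIs per barcode and Car2 at 7.26.

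Mitochondrial transcripts made up 9.73% (9.55% to 9.91%) of non-globin UMIs, against 3.18% in globin-led barcodes and 1.52% in low-globin barcodes. Without the 4 barcodes that had under 60% globin the share was 8.02%. Per barcode the sum was 18.7 UMIs against 17.8 (17.3 to 18.3) in globin-led barcodes, and 15.03 (14.7 to 15.4) without those 4, which turns the direction. In the 30 barcodes of 200 to 8500 genes with 75% globin or more it was 25.1, or 6.62% of non-globin UMIs. Most of it was mt-Rnr2, the large ribosomal RNA of mitochondria, with 7515 UMIs in 522 barcodes and a median of 11. The messenger mt-Cytb was at 1.04 UMIs per barcode against 1.05 in globin-led and 21.5 in low-globin barcodes. Its share was 0.540% of non-globin UMIs against 0.187% and 0.446%, and 263 of its 542 UMIs came from a single barcode. Without the 4 barcodes under 60% globin, mt-Cytb was at 0.445 UMIs per barcode and 0.237% of non-globin UMIs. Genes of cytosolic ribosomal proteins, a list added after the values were seen, took 3.62% of non-globin UMIs against 3.57% in globin-led barcodes and 4.55% in low-globin barcodes.

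**Figure D5:**
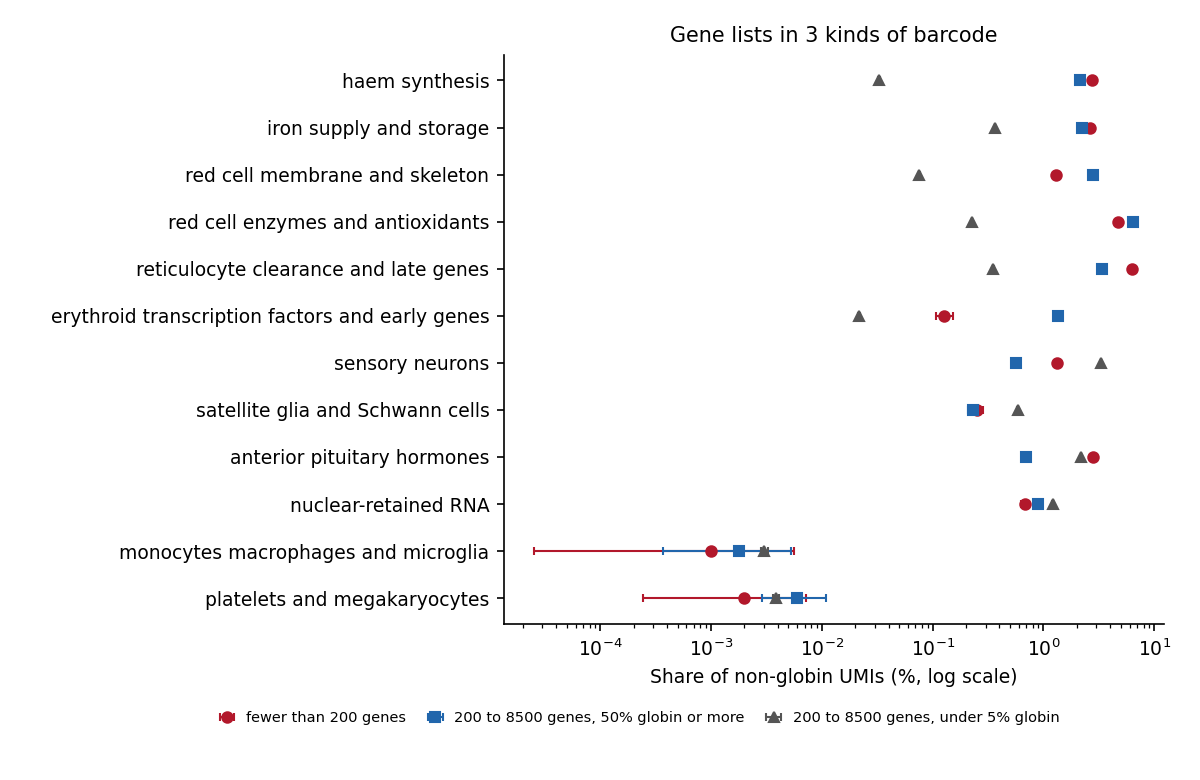
Share of non-globin UMIs (x axis, %, log scale) from each gene list in barcodes under 200 genes, globin-led barcodes and low-globin barcodes of 200 to 8500 genes, with exact 95% binomial intervals, which are mostly smaller than the symbols. The late list lies highest in barcodes under 200 genes (6.27%), and the early list lies lower there (0.128%) than in globin-led barcodes (1.35%).

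Blood cells of other kinds were hardly seen. The 9 measured genes of platelets and megakaryocytes had 2 UMIs in the 523 barcodes, 12 genes of neutrophils had 2, 14 genes of monocytes, macrophages and microglia had 1 (Cd74), and 14 genes of B and T cells had 11. Defining genes such as Ppbp of platelets, S100a9 of neutrophils, Lyz2 and Ptprc of leukocytes and Cd3e of T cells had 0. Endothelial genes had 19 UMIs over 10 genes, and genes of mural cells and fibroblasts 25 over 11. As a share of non-globin UMIs, endothelial genes took 0.0189%, against 0.0227% in globin-led and 0.0148% in low-globin barcodes. Genes of mural cells and fibroblasts took 0.0249% against 0.00894% and 0.0281%, and those of B and T cells 0.0110% against 0.0227% and 0.00712%. The shares of the platelet, neutrophil and monocyte lists were below those of low-globin barcodes.

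Transcripts of neurons, glia and pituitary cells were present at a low level. All 18 sensory neuron genes had a UMI somewhere, 1334 in sum over 451 barcodes, or 2.55 per barcode against 3.18 in globin-led barcodes and 159 in low-globin barcodes. As a share of non-globin UMIs they took 1.33% (1.26% to 1.403%) against 0.569% in globin-led barcodes and 3.29% in low-globin barcodes. All 9 of the compared genes had a share at least 2 times higher than in globin-led barcodes, against 17.8% of all genes compared, with a median ratio of 2.21 by share and 0.758 per barcode. Nefm, a neurofilament chain, was at 0.516 UMIs per barcode against 0.707 in globin-led barcodes, Uchl1 at 0.258 against 0.263 and Calca, which encodes CGRP, at 0.205 against 0.190. Glial genes were at 0.482 per barcode against 1.29, with Mbp at 0.115. Thinned to 1000 UMIs, 13.7% of barcodes under 200 genes and 12.2% of globin-led barcodes had a UMI of Calca. The source of these UMIs was not tested.

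The pituitary hormone list was dominated by Gh, growth hormone, with 2517 UMIs in 460 barcodes. The median barcode had 3 UMIs of Gh, and the mean was 4.81 against 3.46 in globin-led barcodes and 87.7 in low-globin barcodes. The highest values stood apart: 1 barcode of 189 genes had 270 Gh UMIs (24.4% of its UMIs, globin 54.3%), and 1 of 177 genes had 183 (17.9%, globin 58.5%). These had the lowest globin shares of the 521 barcodes led by Hbb-bs. Without the 4 barcodes of under 60% globin, the pituitary share of non-globin UMIs was 2.42% in place of 2.81%. It was 0.696% in globin-led barcodes. Without those 4 barcodes Gh kept 2058 of its 2517 UMIs, or 3.97 per barcode. Tshb, the beta chain of thyrotropin, had 25 UMIs, all in 1 barcode, and Prl had 202 UMIs with at most 6 in a barcode.

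The 2 barcodes not led by a globin were mitochondrial. One had 125 genes and 1096 UMIs, of which 970 (88.5%) were mitochondrial, led by mt-Cytb with 263. The other had 70 genes and 1012 UMIs, of which 933 (92.2%) were mitochondrial and 758 came from mt-Rnr2. They had 6 and 13 globin UMIs, 3 UMIs of Gh each, and none of Alas2 or Bpgm. Among the barcodes of 200 to 8500 genes, 9 had 50% or more mitochondrial UMIs, up to 85.7%. In the other 519 barcodes under 200 genes with 60% globin or more, the mitochondrial share was at most 10.3%, with a median of 1.02%.

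Against the whole set of 200 to 8500 genes, which include the neurons, 25.9% of 402 genes compared had a share at least 2 times higher in the barcodes under 200 genes and 44.8% a share at least 2 times lower. Genes with the highest ratios included Alas2, Isg20, Fam46c, Rsad2, Bpgm, Hbq1a, Hbq1b, Ube2l6, Epb4.1 and Pabpc1. For Rsad2, an antiviral protein induced by interferon, there were 518 UMIs in 244 barcodes, 0.990 per barcode against 1.51 in globin-led barcodes and 0.0370 in low-globin barcodes. Of the 10 genes highest against globin-led barcodes by share, 4 were mitochondrial (mt-Nd1, mt-Nd2, mt-Nd5 and mt-Rnr1) and 2 encode pituitary hormones (Gh and Prl). The mt-Nd1 share was 0.389% of non-globin UMIs against 0.0984% in globin-led barcodes, and 0.174% without the 4 barcodes under 60% globin, which left 169 of its 390 UMIs. Without those 4, mt-Nd2 went from 0.212% to 0.117% (0.0590% in globin-led barcodes) and mt-Nd5 from 0.294% to 0.162% (0.0823%). The share of mt-Rnr1 went from 0.251% to 0.195% (0.0733%). The others of the 10 genes included Slc25a39, a mitochondrial carrier of glutathione, and Fam220a, at 0.816 and 0.577 UMIs per barcode against 0.737 and 0.487. Against the whole set, the lowest ratios were those of Tac1, the tachykinin precursor of sensory neurons, with 45 UMIs, and of general genes such as Ldha with 16 and Ywhae with 11.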

How the data were processed

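The authors deposited raw UMI counts of 21536 genes in 6997 barcodes of 12 bases, with no normalization, and reads had been mapped to mm10. The submitters' processing notes name bcl2fastq 2.17, STAR 2.5.3a and Seurat 1.4.0.16. By its methods the study left barcodes under 200 or over 8500 genes out of its clustering, but the table holds them: this filter leaves 6464 barcodes, while the number of libraries the methods give after it is close to the whole table. Here genes per barcode, shares of summed UMIs and UMIs per barcode were computed with Python 3.11.15, numpy 2.4.6 and scipy 1.17.1. The 4 adult globins are Hbb-bs, Hbb-bt, Hba-a1 and Hba-a2. Genes enter a comparison with at least 50 UMIs in barcodes under 200 genes, or as many expected from the other group. Genes named are the 15 non-globin genes with most UMIs, those leading a barcode, the 10 or 15 highest and 10 lowest by ratio of shares, and examples from the gene lists; Ube2c and other examples outside this rule were chosen after their values were seen. The members and lists were chosen with earlier results of these data known. Of 263 listed genes, 17 had no row in the table and 3 were matched by an older symbol. Rarefaction used the hypergeometric expectation and was tested on simulated data. No doublet caller was run. No barcode under 200 genes stands among the 6 barcodes that occur in 2 columns. Gene positions are from GENCODE M21 (GRCm38), promoters from RefSeq. Some genes are not reported here.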

Additional observations from a re-analysis of the deposited data

How the results depend on the processing

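The UMI total per barcode, at most 2771, limits what can be seen. A count of 0 over all 523 barcodes, taken to allow 3 UMIs, leaves up to 0.00574 UMIs per barcode. The exact interval reaches 0.00705. With a limit of 150 or 250 genes, the globin share was 85.9% or 82.9%, the Hbb-bs share of beta globin 81.5% or 81.2%, the late erythroid share of non-globin UMIs 6.50% or 5.86% and the mitochondrial share 10.8% or 10.6%. A UMI minimum of 1500 left 72 barcodes, all led by a globin, with 86.3% globin, an alpha to beta ratio of 0.388, Hbb-bs at 80.1% of beta globin, a late share of 7.53% and a mitochondrial share of 7.62%. Counting a gene only from 2 UMIs let in 2425 barcodes, of which 1142 were led by a globin gene, with 30.5% globin, a late share of 0.868% and a mitochondrial share of 3.55%; this alternative takes in other cell types by construction. As a median over barcodes the globin share was 85.4% and the mitochondrial share 7.41%. Without the 4 barcodes of under 60% globin, an alternative chosen after seeing the data, the shares were 85.0% globin, 6.46% late and 8.02% mitochondrial, and the pituitary share 2.42%. Of 40 values under these alternatives and the other globin limits below, 33 stayed within 1.5-fold of the reported one; leaving out 9 barcodes that lie 1 base from a deeper barcode moved none by more. Taking 25% or 75% globin as the limit for globin-led barcodes gave 522 or 30 barcodes in place of 300; UMIs per barcode were then 10.2 or 4.17 for Car2 (10.7 reported), 13.6 or 9.07 for Gpx1 (15.8), 0.670 or 0.0333 for Klf1 (0.543) and 14.2 or 27.1 for Pabpc1 (18.3). Their late share of non-globin UMIs was 2.12% or 4.74% (3.40%), their mitochondrial share 3.24% or 6.62% (3.18%) and their Pabpc1 share 1.91% or 7.14% (3.28%). No paired analysis was possible because the barcodes name no run or mouse.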

Other observations

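The barcodes under 200 genes were unevenly placed along the columns of the table, whose order is not explained in the sources used here. Of the first 3000 columns 6 were such barcodes, and 482 lay after these up to column 6000. The next 500 columns held 1, and the last 497 held 34. In the 7 stretches of 500 columns or fewer with at least 29 of them, the alpha share of globin ran from 22.9% to 30.8%, Pabpc1 from 13.2 to 22.5 UMIs per barcode and Gh from 0.676 to 7.07, while the Hbb-bs share of beta globin ran only from 80.5% to 81.8%. Whether a stretch of columns is a run was not tested.

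Of 150 pairs of barcodes that differ by 1 base, 11 held a barcode under 200 genes, and 12 such barcodes (2.29%) were in a pair, against 228 (3.53%) of those with 200 to 8500 genes. In 1 pair both were under 200 genes, shown with the differing base in capitals:
87 genes, 1065 UMIs, 90.5% globin: agtgagttttTc
110 genes, 1359 UMIs, 87.0% globin: agtgagttttGc
The partners in the other 10 pairs had at most 23.6% globin. An uncalled last base (N) stood in 7.65% (5.52% to 10.3%) of barcodes under 200 genes and in 7.55% (6.92% to 8.22%) of those with 200 to 8500 genes.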
